A study of Homo sapiens with 2 samples.

Results

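The 28 genes described here make, sense, move or store cholesterol. They were chosen by name, as a list of symbols in the deposited gene table, and all 28 were among its 29972 genes. The rule uses no measured value, but the list was drawn up with earlier results of these data known. The list is not a complete pathway: it holds 19 enzymes of synthesis, 4 genes of the SREBP sensor, 3 genes of the LXR arm, 1 transfer protein and 1 storage enzyme, and uptake is represented only by MYLIP, which controls receptor turnover. RNA came from 2 subcutaneous tumours of NCI-N87, an established human gastric carcinoma line that carries many copies of ERBB2 (HER2). The hosts were nude mice, whose own stromal cells remain in such tumours. 1 tumour received no treatment. The other was refractory to trastuzumab emtansine (T-DM1), a HER2 antibody that carries a microtubule poison, given every 3 weeks for 18 weeks. Each group is 1 library, so no difference below has a replicate error and no test across samples was possible, and the labels do not say whether a tumour was pooled from several animals.

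Cells build cholesterol from acetyl-CoA through mevalonate, isoprenoid diphosphates, squalene and lanosterol, and the isoprenoids also feed protein prenylation and dolichol. When sterol in the endoplasmic reticulum is low, SCAP carries the SREBP transcription factors to the Golgi for activation, and when it is high, INSIG proteins hold SCAP back. Excess sterol is esterified for storage by SOAT1, is moved between membranes by transfer proteins such as STARD4, and through its oxidised forms activates the LXR receptors, one of whose targets, MYLIP, marks lipoprotein receptors for degradation.

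The promoters of these genes are shown first because SREBPs are known to act together with the CCAAT-binding factor NF-Y. RefSeq promoter sequences (GRCh38.p14) were matched for 25 of the 28 genes, and the 250 bases before each of their 35 listed starts were searched on both strands. A CCAAT box (CCAAT) lay before at least 1 start in 20 of the 25 genes, or 80.0%, against 41.4% of 10085 described genes and 37% of all 27305 genes with a sequence. Among the enzymes 14 of 16 genes held it. The sterol regulatory element core TCACNCCAC lay in 1 gene of 25, SREBF2, and in 1.2% of described genes. An E-box (CACGTG) lay in 3 of 25 genes against 10.9% of described genes, and an SP1 box (GGGCGG) in 24 of 25 against 73.4%. No motif contains another, although neighbouring matches can share end letters. A match describes the letters of these windows and is not a binding site. Only these exact letters were searched, so a missing match does not show that a gene lacks such an element. For the 4 genes past a 2-fold difference between the tumours, the one of the other genes with the highest CPM in either library (HMGCS1) and the gene with the sterol element, the 30 bases around the match nearest to the first listed start that holds one are given on the gene's own strand, with the match in capitals (CCAAT, its reverse complement ATTGG, or the sterol element).
EBP, chrX:48521766-48521795, plus strand: cttcgcttcaccATTGGctcgctccgtaag
IDI1, chr10:1048956-1048985, minus strand: ctggcgcgagcgATTGGctgcgcggcccgg
HMGCS1, chr5:43313495-43313524, minus strand: ctaccggccgcgATTGGctgtgggagccac
STARD4, chr5:111512648-111512677, minus strand: ctcccgcgccagCCAATccgaacaagcgca
SOAT1, chr1:179293700-179293729, plus strand: acctggggaccaCCAATaggatgctcagcc
SREBF2, chr22:41832962-41832991, plus strand: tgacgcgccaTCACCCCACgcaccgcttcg
The first base of the match lay 30 bases before the start in EBP, 87 in IDI1, 100 in HMGCS1, 130 in STARD4, 85 in SOAT1 and 133 in SREBF2. Genes that were higher in the refractory tumour (EBP and IDI1) and genes that were lower (STARD4 and SOAT1) both carried the CCAAT box. Because 20 of the 25 genes held it, these few genes cannot show whether the box goes with direction, which was not tested.

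Levels are given as CPM, rounded expected read counts relative to library size after scaling by TMM, a method that aligns the bulk of genes between libraries. Ratios are refractory over untreated, with exact 95% intervals for 2 Poisson counts that cover counting error only. The libraries held 75722117 and 59902704 expected counts. Genes under 1 CPM in both libraries were set aside, which left 14167 described genes and kept all 28 members, each of which also had more than 1 CPM in the lower library. A gene was called when it differed at least 2-fold after adding 1 CPM to both values (a log2 ratio of 1 or -1). Over all described genes 9.80% were called higher and 11.0% lower, and the median log2 ratio was 0.03. All 6 epithelial markers of the tumour line were present in both libraries, summing to 14404 and 13966 CPM, 3 of them above and 3 below a log2 ratio of 0, with the treatment's target ERBB2 at 7267 and 7975 CPM (untreated, then refractory, the order kept below), EPCAM at 471 and 785 CPM, KRT8 at 3204 and 1827 CPM and KRT18 at 1215 and 922 CPM.

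Of the 28 genes, 2 were called higher (EBP and IDI1) and 2 lower (STARD4 and SOAT1), shares that are near or below those of all described genes. The other 24 lay between. The direction was uneven: 21 had a log2 ratio above 0 and 7 below, with a median of 0.38, whereas 7360 of the 14167 described genes were above 0. Among the 19 enzymes 17 were above 0, with a median log2 ratio of 0.55, and their summed level was 1626 CPM in the untreated library and 2250 CPM in the refractory library, 1.38 times as much. At a smaller threshold of 1.5-fold, 9 of the 19 enzymes were higher and 0 lower, where 19.4% of described genes were higher and 18.9% lower. The first count fell to 5 with 5 CPM added in place of 1, and was 7 with total-count scaling, in FPKM, with neighbours subtracted (then with 1 lower) or with length and GC trends removed. The 9 members that are not enzymes went the other way on balance, with 4 above 0, 5 below and a median of -0.16.

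**Figure D1:**
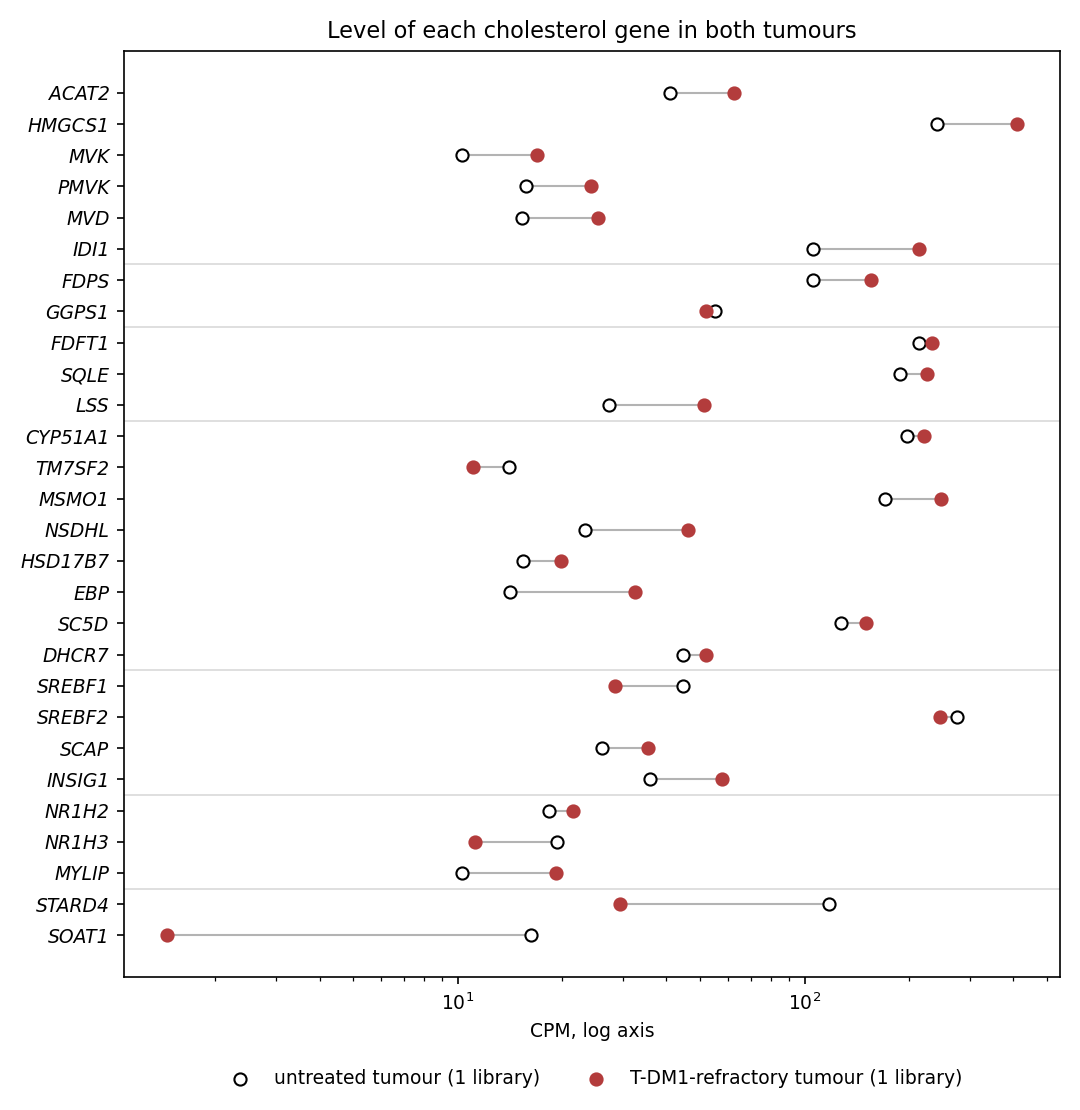
Level of each of the 28 genes in CPM (log axis) in the untreated (open) and T-DM1-refractory (filled) tumour, 1 library each, ordered by role from top to bottom. All 6 mevalonate genes lie to the right in the refractory tumour, and the widest gaps are those of SOAT1 (16.3 and 1.45 CPM) and STARD4 (118 and 29.3 CPM) in the opposite direction.

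The mevalonate pathway was the most even stretch, with all 6 genes between 1.52 and 2.02 times higher in the refractory tumour. ACAT2, the cytosolic thiolase that makes acetoacetyl-CoA, stood at 41 and 62.5 CPM (ratio 1.52, 95% interval 1.45 to 1.6). HMGCS1, which makes HMG-CoA and had the most reads of any member in the refractory tumour, stood at 241 and 410.2 CPM (ratio 1.7, 95% interval 1.67 to 1.74). The mevalonate kinase MVK stood at 10.3 and 16.9 CPM (ratio 1.64, 95% interval 1.49 to 1.8). These are modest differences, and none of the 3 passed 2-fold.

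The phosphomevalonate kinase PMVK stood at 15.7 and 24.2 CPM (ratio 1.54, 95% interval 1.43 to 1.67). MVD, the decarboxylase that makes isopentenyl diphosphate, stood at 15.3 and 25.4 CPM (ratio 1.66, 95% interval 1.54 to 1.8). IDI1, the isomerase that makes dimethylallyl diphosphate, stood at 106 and 214 CPM (ratio 2.02, 95% interval 1.97 to 2.08). IDI1 was the only gene of the 6 to be called, with a log2 ratio of 1.01 that lies on the threshold and was under 1 with total-count scaling, 5 CPM added, FPKM or length and GC trends removed (0.98 in each) and with neighbours subtracted (0.75). Together the 6 genes summed to 429 and 753 CPM, 1.76 times as much.

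At the branch point 1 of 2 genes was higher by more than counting error in the refractory tumour. FDPS, which makes farnesyl diphosphate, stood at 106 and 155 CPM (ratio 1.47, 95% interval 1.42 to 1.51). GGPS1, which extends it to geranylgeranyl diphosphate, stood at 55.3 and 52 CPM (ratio 0.941, 95% interval 0.898 to 0.986). The difference of GGPS1 is small, and its log2 ratio of -0.09 became 0.09 when the median of its chromosome neighbours was subtracted, so no direction is read from it.

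Squalene and lanosterol synthesis followed with small differences at its abundant steps. FDFT1, squalene synthase, stood at 214 and 233 CPM (ratio 1.09, 95% interval 1.06 to 1.11). SQLE, the squalene epoxidase that is a rate-limiting oxygen-dependent step, stood at 188 and 225 CPM (ratio 1.2, 95% interval 1.17 to 1.22). LSS, which closes the sterol rings to lanosterol, stood at 27.3 and 51.3 CPM (ratio 1.88, 95% interval 1.78 to 1.99). The ratio of LSS was thus larger than those of the pair of genes before it by more than counting error. Without replicates, how far such ratios vary between tumours is not known.

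From lanosterol to cholesterol 7 of 8 genes were above a log2 ratio of 0, with a median of 0.30. EBP, the sterol isomerase, stood at 14.2 and 32.4 CPM (ratio 2.28, 95% interval 2.12 to 2.46). Its log2 ratio of 1.13 was the highest of the 28, but it was under 1 with 5 CPM added (0.96), with neighbours subtracted (0.91, below HMGCS1 at 1.08) and with length and GC trends removed (0.89). NSDHL, a dehydrogenase that helps remove methyl groups from the sterol ring, stood at 23.3 and 46.1 CPM (ratio 1.98, 95% interval 1.86 to 2.1) and fell just short of the threshold. MSMO1, the methyl oxidase that acts before it, stood at 171 and 247 CPM (ratio 1.45, 95% interval 1.41 to 1.48). EBP and NSDHL both lie on the X chromosome, on different arms, among neighbours whose median log2 ratios were 0.22 and 0.17.

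The remaining enzymes of this stretch differed little. HSD17B7, the keto reductase of the methyl-removing complex, stood at 15.4 and 19.9 CPM. CYP51A1, the lanosterol demethylase, stood at 198 and 220.5 CPM, and the desaturase SC5D at 127 and 150.5 CPM. DHCR7, the last reductase of the pathway, stood at 44.6 and 52 CPM. TM7SF2, a sterol reductase that acts after CYP51A1, was the one gene of the stretch with the opposite direction, at 14.1 and 11.1 CPM (ratio 0.783, 95% interval 0.71 to 0.864).

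**Figure D2:**
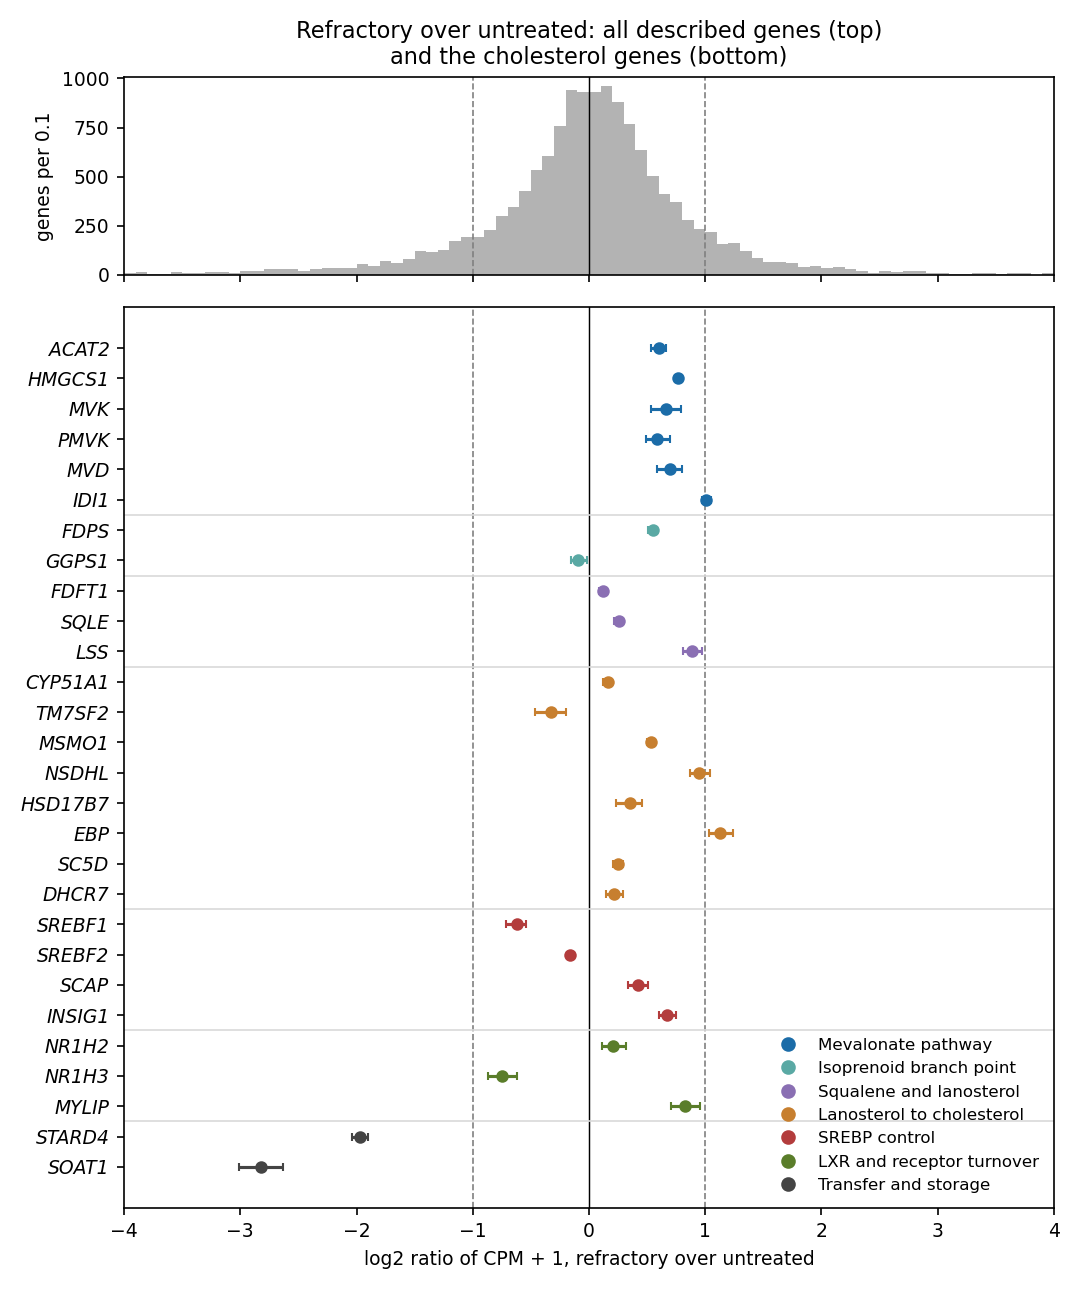
Top, distribution of the log2 ratio (refractory over untreated, 1 CPM added) over the described genes, without the few beyond the axis. Bottom, the same quantity for each of the 28 genes, coloured by role, with bars for the 95% counting interval and dashed lines at 2-fold. The 6 mevalonate genes lie between 0.59 and 1.01, and STARD4 (-1.97) and SOAT1 (-2.82) lie far to the left of all others.

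The sensor genes did not share one direction. SREBF2, which encodes the SREBP most active on the sterol enzymes, was slightly lower, at 275 and 246 CPM (ratio 0.897, 95% interval 0.878 to 0.916). SREBF1, whose products act more on fatty acid genes, stood at 44.5 and 28.5 CPM (ratio 0.641, 95% interval 0.604 to 0.679). The escort SCAP stood at 26.1 and 35.4 CPM (ratio 1.35, 95% interval 1.27 to 1.44). Both transcription factor genes thus had less mRNA in the refractory tumour while SCAP and most enzymes had more. INSIG1, the retention factor and itself an SREBP target, stood at 35.8 and 57.7 CPM (ratio 1.61, 95% interval 1.53 to 1.7), a ratio inside the range of the mevalonate genes. SREBP activity depends on cleavage of the protein, which mRNA levels do not measure.

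In the LXR arm the 2 receptor genes differed in direction. NR1H3 (LXR alpha) stood at 19.4 and 11.2 CPM (ratio 0.575, 95% interval 0.524 to 0.63), and NR1H2 (LXR beta) at 18.4 and 21.5 CPM (ratio 1.17, 95% interval 1.08 to 1.26). Per length NR1H3 was the higher one in the untreated tumour (14.5 against 10.3 FPKM, the deposited fragments scaled by length and library size) and the lower one in the refractory tumour (8.39 against 11.8 FPKM). MYLIP, an LXR target that encodes the ubiquitin ligase of lipoprotein receptors, stood at 10.3 and 19.2 CPM (ratio 1.86, 95% interval 1.69 to 2.04).

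The largest differences were in transfer and storage. SOAT1, the enzyme of the endoplasmic reticulum that esterifies cholesterol, had 1248 reads in the untreated and 86 in the refractory tumour, or 16.3 and 1.45 CPM, 11.3-fold lower (95% interval 9.05 to 14.2). STARD4, a soluble sterol transfer protein and a known SREBP target, stood at 118 and 29.3 CPM, 4.01-fold lower (95% interval 3.81 to 4.23). The difference of STARD4 is opposite in direction to that of 17 of the 19 enzymes and of INSIG1. In the authors' deposited table SOAT1 was the only one of the 28 genes with a p-value under 0.05 (0.00346), as had 2157 genes or 7.2% of that table, and STARD4 had 0.0726. Those p-values set 1 library against 1 with a dispersion that no source used here gives, and compare these libraries only.

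Levels between genes were compared per length, in deposited FPKM. In the untreated tumour the order was led by FDFT1 (114 FPKM), FDPS (101), MSMO1 (88.8), CYP51A1 (73.7) and HMGCS1 (72.4). In the refractory tumour FDPS (146 FPKM) and MSMO1 (127) came before FDFT1 (123) and HMGCS1 (122), whose values are too close to be ordered without replicates. The same 7 genes, the 5 named with SQLE and IDI1, held the first 7 places in both tumours. STARD4 moved most, from place 9 of 28 (35 FPKM) to place 25 (8.15 FPKM), while SOAT1 was last in both (2.48 and 0.216 FPKM). EBP moved from place 15 to place 10.

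To give the values of its surroundings, each gene was set beside the 20 described genes nearest to it, 10 on each side where the chromosome end allowed. For 27 of the 28 genes the median log2 ratio of these neighbours lay within 0.5 of 0. MYLIP was the exception: its neighbours had a median of 0.93, with 7 of 20 called higher, close to its own 0.83. NR1H3 (-0.75) also lay among lower neighbours (-0.50). SOAT1 and STARD4 stood well below their surroundings, with neighbour medians of -0.30 and -0.36, and 2 and 4 of 20 neighbours called lower. The enzymes are spread over 12 chromosomes, and 18 of 19 were above the median of their own neighbours, TM7SF2 being the other. HMGCS1 lay 1.08 above a neighbour median of -0.31. The part of chromosome copy number in any of these differences was not tested.

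**Figure D3:**
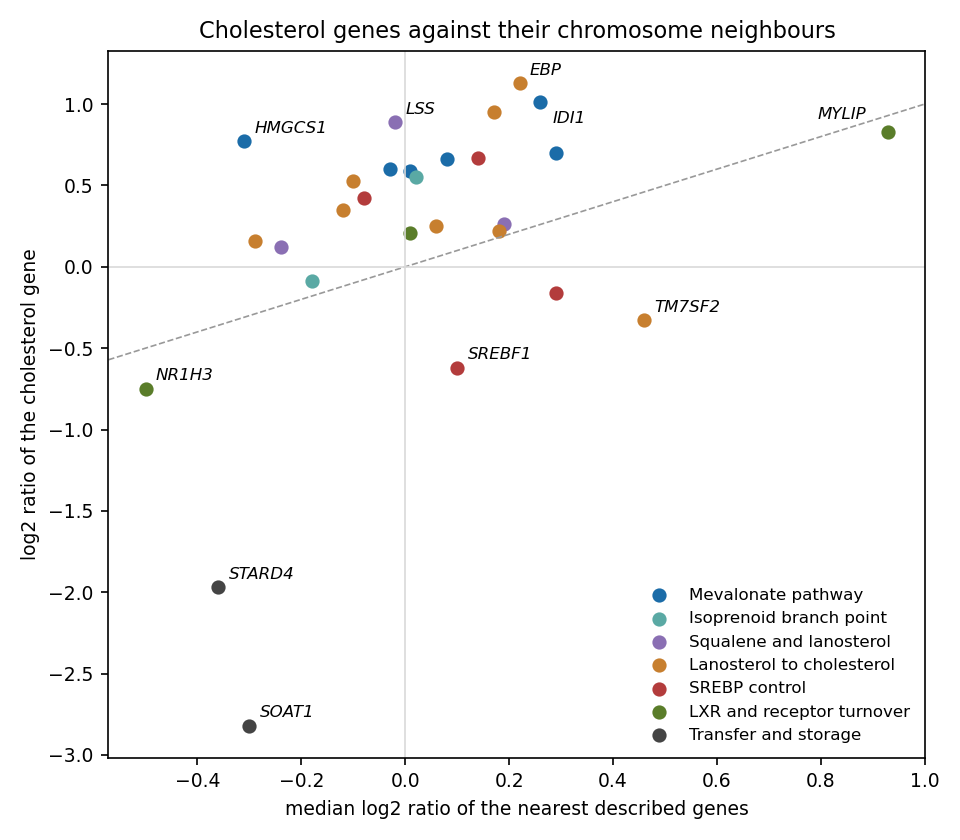
Log2 ratio of each of the 28 genes (y axis) against the median log2 ratio of its nearest described genes on the chromosome (x axis), coloured by role, with equality dashed. MYLIP lies near the line at a neighbour median of 0.93, while SOAT1 and STARD4 lie far below it and the mevalonate genes above it.

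Wider sterol genes were taken from 9 lists written beside the members, with 123 described genes outside the 28. Of these 15 were called higher and 9 lower, 12.2% and 7.32%, where 9.80% and 11.0% of all described genes were. Neither share is far from that background, which also applies to the counts of each list below. The median log2 ratio of the 123 genes was 0.13, against 0.03 over all described genes. In the list of other sterol synthesis enzymes and their electron donors 9 of 12 were above 0, with a median of 0.29. Genes of SREBP processing and sterol-regulated degradation had 1 of 21 called higher and 0 lower (median 0.07), with the COPII coat gene SEC23A at 44.2 and 103 CPM. Genes that use isoprenoids had 2 of 17 higher and 0 lower (median 0.22): DHDDS, a subunit of the dolichol-making prenyltransferase, stood at 16 and 41.3 CPM, and ICMT, which methylates prenylated proteins, at 72.7 and 176 CPM.

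Genes of sterol uptake and transfer had the 2 highest log2 ratios of the 9 lists, 5.18 for NPC1L1 and 4.46 for GRAMD1B. In the uptake and endosomal export list 4 of 13 genes were called higher and 0 lower (median 0.05). NPC1L1, the intestinal cholesterol importer, had 41 reads in the untreated and 3253 in the refractory tumour, or 0.536 and 54.8 CPM (ratio 102, 95% interval 75.2 to 143). Among 21 sterol transfer proteins 1 was higher and 1 lower (median 0.13). GRAMD1B, which carries cholesterol from the plasma membrane to the endoplasmic reticulum, stood at 6.92 and 173 CPM (ratio 25, 95% interval 22.9 to 27.3), against the lower STARD4 described above, and CAV1, the caveolar coat gene, stood at 18.6 and 5.51 CPM.

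Next to SOAT1, the esterification and droplet list had 1 of 9 genes higher and 1 lower (median 0.36). NCEH1, which hydrolyses cholesteryl esters, stood at 56.4 and 137 CPM (ratio 2.43, 95% interval 2.34 to 2.52), and the droplet coat gene PLIN2 stood at 14.5 and 3.91 CPM, 3.72-fold lower (95% interval 3.23 to 4.3). SOAT2, the second sterol esterification enzyme, was under 1 CPM in both tumours (73 and 5 reads). SOAT1 and PLIN2 were thus lower and NCEH1 higher in the refractory tumour. The list did not share 1 direction: 6 of its 9 described genes were above a log2 ratio of 0 and 3 below.

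Efflux genes and LXR partners had 3 of 9 higher and 1 lower (median 0.69), with RXRB, a partner receptor of LXR, at 21.3 and 47 CPM and the phospholipid transfer protein gene PLTP at 4.07 and 0.893 CPM. Oxysterol and bile acid enzymes had 1 of 4 higher and 1 lower (median -0.71): HSD3B7, of bile acid synthesis, stood at 2.38 and 6.79 CPM and the sterol sulphotransferase SULT2B1 at 46.2 and 10.9 CPM. The lipogenic SREBP targets had 1 of 18 higher and 5 lower, with a median of -0.10 against 0.55 in the 19 sterol enzymes. Their summed level was higher in the refractory tumour, at 2204 and 2863 CPM, or 1.3 times as much. The desaturase SCD alone stood at 383 and 1168 CPM, a wider gap than that between the 2 sums. The higher sum thus does not describe the list, in which 7 genes were above a log2 ratio of 0 and 11 below. ACACB, the mitochondrial acetyl-CoA carboxylase, had 583 and 2 reads (226-fold lower, 95% interval 62.3 to 1872). The desaturase FADS1 had 567 and 3 reads (147-fold lower, 95% interval 49.9 to 713).

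**Figure D4:**
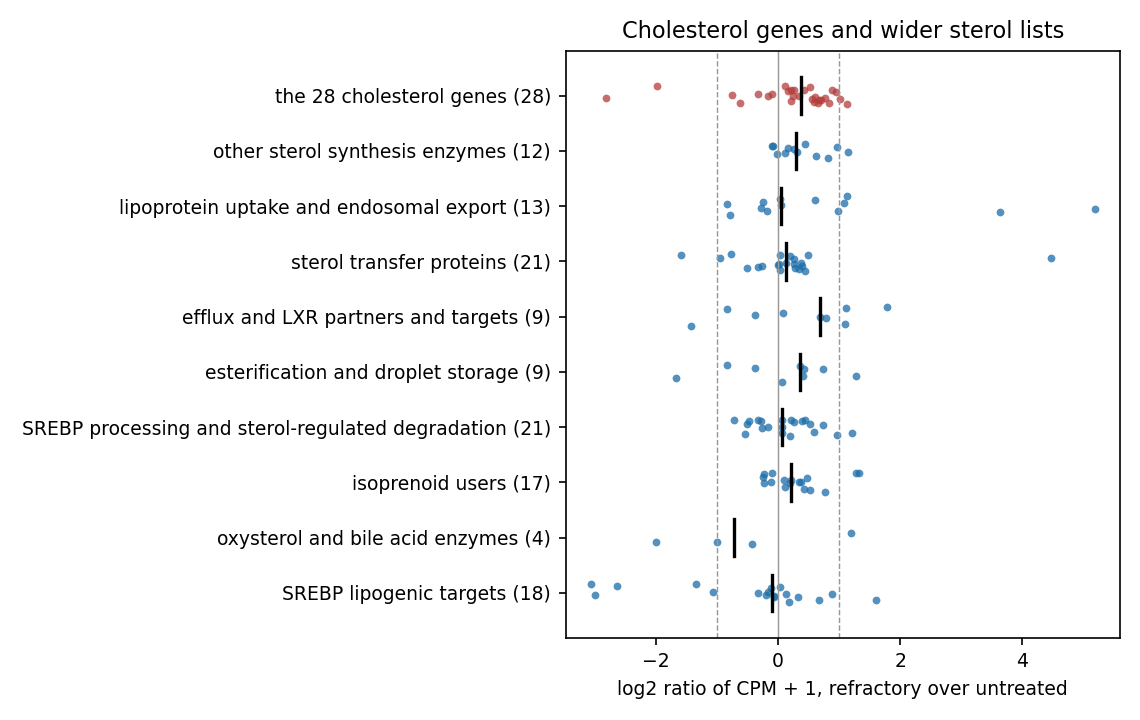
Log2 ratio (refractory over untreated, 1 CPM added) of the 28 genes (red) and of the described genes of 9 wider sterol lists (blue, number of genes in brackets), with the median as a bar and dashed lines at 2-fold. The 28 genes have a median of 0.38 and run from -2.82 to 1.13, and the lipogenic list has a median of -0.10 and a tail to -3.06.

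Markers of other cell types were read as human symbols, and the mouse host was not measured separately. No source used here says whether mouse reads were set apart, for these markers or for the cholesterol genes. Of the macrophage list 3 of 6 genes were described and 2 called higher, CD68 (3.62 and 29.2 CPM) and LYZ (27.2 and 95.9 CPM), and the list summed to 31.2 and 127 CPM, while the defining markers AIF1 and CSF1R had 0 reads in both libraries and 0 and 3 reads, respectively. Adipocyte markers summed to 0.719 and 5.21 CPM, a difference that was mostly CIDEC (1 and 249 reads), with PLIN1 at 0.706 and 1.01 CPM and ADIPOQ and FABP4 at 0 reads in both. Endothelial markers summed to 2.6 and 0.287 CPM, led by VWF (1.39 and 0.202 CPM), fibroblast markers to 2.97 and 2.11 CPM, hepatocyte markers to 1.62 and 0.809 CPM, and steroid-forming cell markers to 0.144 and 0.303 CPM. The part of these cells in the results was not tested. Stromal cells of these tumours are those of the mouse host, so levels under human symbols are not counts of such cells. Reads of the tumour cells and mouse reads assigned to human genes cannot be told apart here. In bulk tumours, fewer cells of a type and less RNA per cell cannot be told apart either.

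Reads of some members could be divided with other genes. The expected counts of 5 genes lay more than 0.001 from a whole number in at least 1 library (ACAT2, IDI1, FDPS, LSS and HSD17B7), so part of their reads was shared with a similar or overlapping sequence. Exons of other genes overlap 13 members on the opposite strand, and no source used here says whether the counting used strand. On the same strand, where strand cannot separate reads, they overlap 3 members (GGPS1, TM7SF2 and CYP51A1). TBCE beside GGPS1 stood at 34.4 and 51 CPM and VPS51 beside TM7SF2 at 16.2 and 21.9 CPM, both opposite in direction to their members. The same-strand partners of CYP51A1 had no listed level. For the called genes the overlapping partners were low, with IDI2-AS1 beside IDI1 at 1.78 and 2.92 CPM and STARD4-AS1 beside STARD4 at 3.73 and 4.43 CPM. For 5 other members an opposite-strand partner was about as abundant as the member or more so. TCP1 beside ACAT2 stood at 344 and 341 CPM. MMAB beside MVK stood at 11.8 and 22.2 CPM, higher in the refractory tumour as MVK was. Lower in the refractory tumour, as their members were, stood ACP2 beside NR1H3 at 22.4 and 10.5 CPM, RAI1 beside SREBF1 at 44.4 and 30.2 CPM and ARID4B beside GGPS1 at 162 and 122 CPM. Without strand, reads of such a pair cannot be told apart where the exons overlap, so the values of these 5 members are uncertain. Of the 5, only ACAT2 had expected counts away from a whole number. Those of MVK, NR1H3, SREBF1 and GGPS1 were whole by the same measure, so no division of their reads was seen. The part of the partners in these values was not tested.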

How the data were processed

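Polyadenylated RNA of 2 xenograft tumours was profiled, 1 library each. The authors deposited 1 table with expected counts, FPKM, a log2 fold change and a p-value per gene. The submitters' processing notes name STAR 2.7.0e, RSEM 1.2.28, edgeR 3.26.8, bcl2fastq 2.20 and the builds GRCm38 and GRCh38, and no source used here gives their roles. FPKM, per the file headers, was scaled by length and library size. Per gene, the authors' log2 value, refractory over untreated, stayed within 0.0194 of that from TMM-scaled counts for the 13005 genes above 50 reads in each library. Deposited p-values by the authors are quoted as they stand.

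Expected counts were rounded, and TMM factors (1.0097 untreated, 0.9904 refractory) came from edgeR 4.0.16 in R 4.3.3. CPM, ratios with exact 95% intervals (Clopper-Pearson given the sum of 2 Poisson counts) and log2 ratios with 1 CPM added were computed in Python 3.11.15, and the calculation was tested on simulated data. Reads carry no molecular identifiers, so intervals cover counting error only. Neighbours were ordered by RefSeq gene starts for 13549 of 14167 described genes. GENCODE 29 gave exon overlaps and GC content. In 29 of 35 promoter entries the bases after the start were found in a GENCODE transcript of that gene.

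The members and lists were chosen with earlier results of these data known. The genes named are all 28 members, up to 2 genes past 2-fold in each direction in each wider list (or the most abundant where none passed), and ERBB2. Some genes under this rule are not reported here, and SOAT2 and the markers and overlapping genes named were picked after their values were seen. Alternatives were 3 other scalings, pseudocounts of 0.1 and 5 CPM, no filter, a filter of 10 CPM, FPKM, thresholds of 1.5-fold and 4-fold, subtraction of the neighbours' median, and removal of length and GC trends.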

Additional observations from a re-analysis of the deposited data

How the results depend on the processing

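No paired analysis was possible because each group is 1 library, and no replicate could be left out. SOAT1 (log2 ratio -3.41 to -1.52) and STARD4 (-2.00 to -1.61) were called lower under all 10 alternatives other than thresholds, and 17 or 18 of the 19 enzymes stayed above 0. The calls of EBP (0.89 to 1.18) and IDI1 (0.75 to 1.02) depended on the setting. Against 2 members higher, 1 was called with total-count scaling, without the 50 most abundant genes, on the FPKM scale and with the neighbours' median subtracted (then HMGCS1, at 1.08), and 0 with a pseudocount of 5 CPM or with length and GC trends removed. With those trends removed, for the counts and medians an alternative chosen after seeing the data, the enzymes' median was 0.42 and NR1H3 was called lower (-1.04). The summed enzyme ratio was 1.36 with both total-count scalings. At 1.5-fold 11 members were higher and 4 lower, and the wider lists had 29 and 17, where 19.4% of described genes were higher and 18.9% lower. At 4-fold the members had 0 and 1 and the wider lists 3 and 3. The share of all described genes at 4-fold was not computed, so nothing is read from those counts. With a filter of 10 CPM 5 wider genes were lower against 9. Of 280 single-gene values under the alternatives 278 kept their sign, and the exceptions, MYLIP (-0.10) and GGPS1 (0.09), came with the neighbours' median subtracted. Depth limits SOAT1 most, with 86 reads in the refractory library.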
